A study of Gallus gallus with 4 samples.

Results

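Bile acid synthesis in the liver was followed through 4 genes, the enzymes CYP7A1 and AKR1D1 and the nuclear receptors NR1H4 and NR0B2. They were taken as every array probe whose RefSeq accession belongs to one of them, which gave 8 probes for 4 of the 5382 genes that could be named on the array. CYP7A1 and NR1H4 had 3 probes each, and AKR1D1 and NR0B2 had 1 each. In the chicken assembly GRCg7b the genes lie on autosomes, CYP7A1 on chromosome 2, AKR1D1 and NR1H4 on chromosome 1 and NR0B2 on chromosome 23.

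The liver makes bile acids from cholesterol. CYP7A1, cholesterol 7-alpha-hydroxylase, opens the classical route and sets its rate, and AKR1D1, a steroid 5-beta-reductase, later reduces the ring system of the intermediates. In mammals the product feeds back on the route. Bile acids bind NR1H4 (FXR), which raises transcription of NR0B2 (SHP), a partner receptor without a DNA-binding domain, and NR0B2 holds back CYP7A1.

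The tissue was liver of coloured broilers from divergent selection for residual feed intake (RFI), aged 35 days, raised in single cages with feed and water at will, in 2 groups of 2 one-colour arrays of pooled RNA. Group 1 is labelled high and group 2 low, in the labels for feed efficiency (FE) and also for RFI, the intake beyond what a bird's size and growth predict. Since a high value of one usually goes with a low value of the other, the labels do not settle which group was the more efficient. The design text gives 4 to 5 birds per group and a pool divided in duplicate, with the low FE group as control. The sex label reads Both Female on 3 arrays and 1 Male and 1 Female on group 2 replicate 2.

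On the array labelled group 2 replicate 1, against the mean of the other 3 arrays, 416 Z-linked probes had a median log2 difference of 0.50 and 8 probes of the W-linked gene HINTW one of -9.43. The group 1 arrays, labelled Both Female, had Z-linked medians of -0.16 and -0.19 and HINTW medians of 3.40 and 3.17. Group 2 replicate 2, labelled 1 Male and 1 Female, had medians of -0.16 and 2.84, close to those of group 1. Hens carry W and a single Z and cocks a pair of Z, so the levels of group 2 replicate 1 go against its label. Whether the label of either group 2 array is right was not tested. The results for the 4 genes, the pathway and the marker lists are also given without group 2 replicate 1. Spread between arrays may be technical where a pool was divided. The group 2 arrays have unlike sex labels and HINTW levels, so they do not read as 1 divided pool. P-values measure only the spread between the arrays of a group, whatever its source. All 4 arrays lie on 1 slide, so the position of an array and its group cannot be told apart.

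A level is the processed spot intensity over the array's 75th percentile of probes that are not controls, so a level of 1 equals that percentile. Differences are log2 of group 1 minus group 2 with the standard error of limma, n = 2 arrays per group. A change means an adjusted p under 0.05, with the Benjamini-Hochberg adjustment over all 33868 tested probes. All 8 probes were well above background on all 4 arrays and none was saturated, so all passed the filter on dim probes. An exact permutation test of a single gene with 2 arrays against 2 cannot give a two-sided p below 0.3333.

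The 2 enzymes and NR0B2 were lower in group 1, and NR1H4 did not pass the test on any of its probes. Of the 8 probes 5 were called lower in group 1 and 0 higher, where 3.82% of all tested probes were called lower. On 6 of the 8 probes both group 1 arrays lay below both group 2 arrays, as they did on 26.4% of all tested probes. The median difference of all 4872 tested genes was 0.14, and it was -0.08 with median scaling, so the direction of this small overall shift depends on the scaling. In such bulk tissue, fewer cells of a type and less RNA per cell cannot be told apart.

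**Figure D1:**
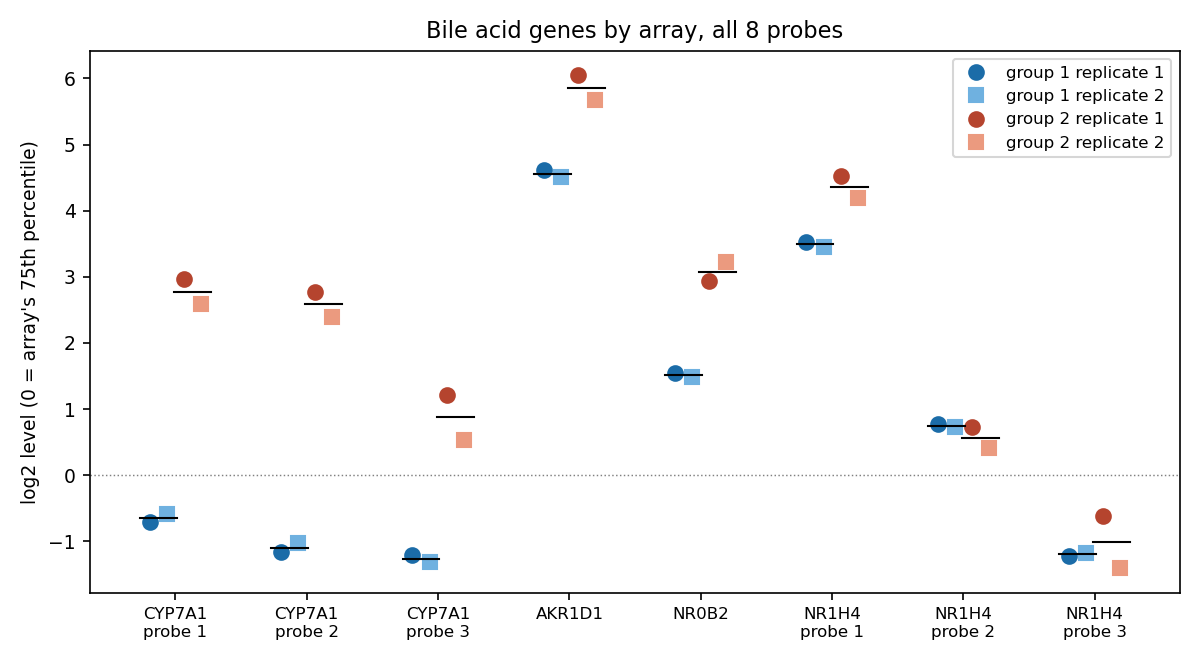
Log2 level (vertical axis, 0 is the array's 75th percentile) of each of the 8 probes on each array, with group means as bars. Levels compare arrays within a probe, not probes with each other. For CYP7A1, AKR1D1, NR0B2 and the brightest NR1H4 probe the group 2 arrays stand above the group 1 arrays, and for the other NR1H4 probes the groups overlap.

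CYP7A1 showed the widest separation of the 4 genes. On its brightest probe the level was 0.615 and 0.664 times the 75th percentile in replicates 1 and 2 of group 1, against 7.83 and 5.99 times in those of group 2. Before scaling these spots read 601 and 962 intensity units in group 1 and 9162 and 7651 in group 2. The arrays of a group lay close to each other and far from the other group, with a gap of 3.17 log2 units between the highest group 1 array and the lowest group 2 array. The difference was -3.42 ± 0.23 (adjusted p = 0.0181), a level in group 2 that was 10.7-fold that in group 1, with a 95% interval of 6.99- to 16.4-fold.

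The other CYP7A1 probes read the same direction. The second by brightness had levels of 0.446 and 0.490 in group 1 and of 6.81 and 5.26 in group 2, a difference of -3.68 ± 0.23 (adjusted p = 0.0165). The third had 0.432 and 0.401 in group 1 and 2.32 and 1.45 in group 2, a difference of -2.14 ± 0.30 (adjusted p = 0.0300, and 0.0505 without the filter on dim probes). The groups did not overlap on any of the 3 probes, but the third gave a 4.41-fold difference (interval 2.57 to 7.59) where the second gave a 12.8-fold one (interval 8.36 to 19.6). Averaged over its 3 probes, CYP7A1 differed by -3.08. Ranked by difference, its brightest probe was the 9th from the lowest among the 4872 genes.

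AKR1D1 was read by 1 bright probe. Its level was 24.6 and 22.7 times the 75th percentile in group 1 and 66.0 and 51.1 times in group 2. Both group 2 arrays stood above both group 1 arrays, by a gap of 1.06 log2 units, and the group 1 level was 40.6% of that in group 2. The difference was -1.30 ± 0.23 (adjusted p = 0.0410), or 2.46-fold with a 95% interval of 1.61 to 3.75. With the replicate number as a block its adjusted p was 0.0585, and it was then not called. Among the 4872 genes it ranked 193rd from the lowest.

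On the receptor side, NR0B2 moved with the enzymes. Its 1 probe had levels of 2.91 and 2.81 in group 1 and of 7.65 and 9.30 in group 2. The group 1 arrays were almost equal, and the group 2 arrays both lay above them. The difference was -1.56 ± 0.21 (adjusted p = 0.0299), or 2.95-fold with a 95% interval of 1.99 to 4.36. NR0B2, the repressor of CYP7A1 in mammals, and CYP7A1 were thus both higher in group 2.

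NR1H4, the bile acid receptor, gave a different reading on each of its 3 probes. Its brightest probe had levels of 11.52 and 10.93 in group 1 and of 23.0 and 18.2 in group 2. The groups did not overlap there, but the difference of -0.87 ± 0.22 did not pass the test (adjusted p = 0.0724), with a 95% interval of -1.46 to -0.28.

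The second NR1H4 probe had levels of 1.70 and 1.66 in group 1 and of 1.66 and 1.32 in group 2, a difference of 0.18 ± 0.22 (adjusted p = 0.584). The third had 0.430 and 0.444 in group 1 and 0.649 and 0.377 in group 2, a difference of -0.18 ± 0.32 (adjusted p = 0.713). On both of these probes the groups overlapped. Their 95% intervals, -0.40 to 0.76 and -1.03 to 0.67, span 0 and leave room for a change in either direction. The mean over the 3 probes differed by -0.29 (adjusted p = 0.446). The GRCg7b table lists several transcripts of NR1H4, and which of them each probe reads was not tested.

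**Figure D2:**
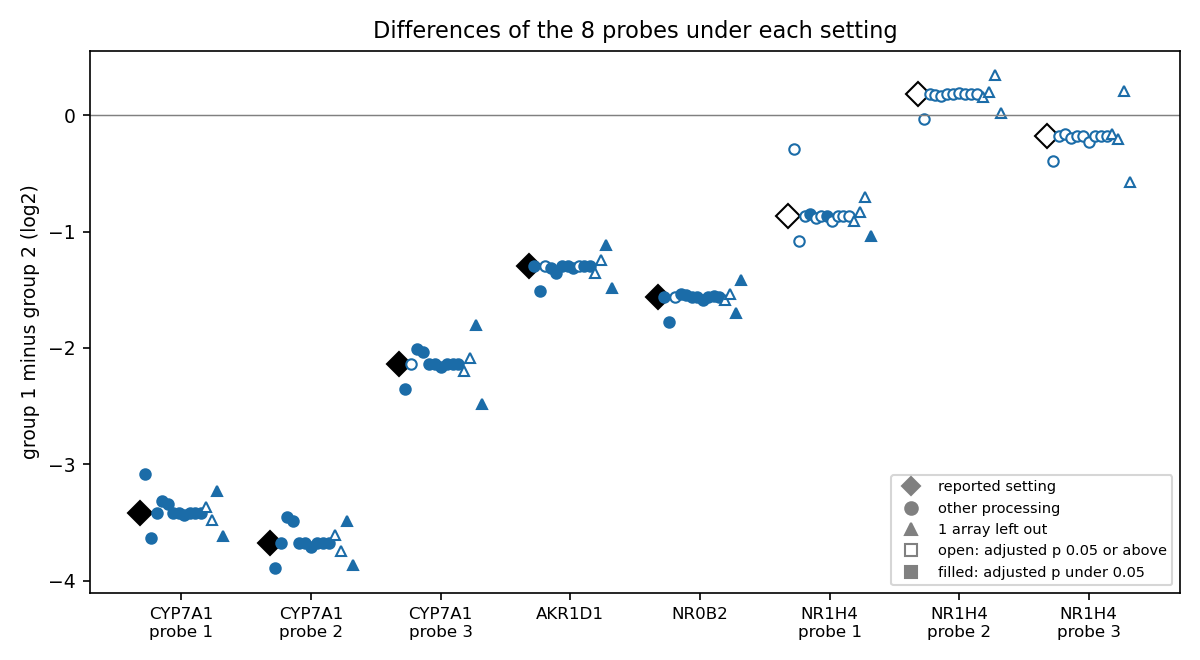
Difference of group 1 minus group 2 (log2, vertical axis) for the 8 probes under the reported processing (diamonds), other processing (circles; a circle of a brightest probe may also be the mean over the gene's probes) and with 1 array left out (triangles). Filled marks have an adjusted p under 0.05. CYP7A1, AKR1D1 and NR0B2 keep their sign under every setting drawn, and calls are lost without either group 1 array.

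Without the array labelled group 2 replicate 1, CYP7A1 differed by -3.23 (adjusted p = 0.0166), AKR1D1 by -1.11 (0.0318), NR0B2 by -1.70 (0.0197) and the brightest NR1H4 probe by -0.70 (0.0653). The other CYP7A1 probes then differed by -3.49 and -1.80, and the other NR1H4 probes by 0.34 and 0.21. Called lower there were 5 of the 8 probes, and 2857 of all 33860 tested. Without group 2 replicate 2 the same differences were -3.62, -1.48, -1.42 and -1.04. In the fits without a group 2 array the spread came only from the group 1 pair. Over all tested probes the median absolute difference was 0.19 in that pair and 0.37 in the group 2 pair. The p-values and calls of these fits, here and below, thus leave out the wider spread within group 2. With either group 1 array left out the differences hardly moved, -3.48 to -3.37 for CYP7A1, -1.36 to -1.24 for AKR1D1 and -1.59 to -1.53 for NR0B2. Their adjusted p then lay between 0.209 and 0.317. In those fits 0 of all tested probes passed, with 4645 and 6183 at an unadjusted p under 0.05 (limma), and the spread came only from the group 2 pair.

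Within group 2 the members did not all lean the same way. Replicate 1 was above replicate 2 on 7 of the 8 probes, by 0.32 to 0.78 log2 units, and NR0B2 alone was below, by -0.28. Over all tested probes replicate 1 was the higher on 48.5%, and the median absolute difference of that pair was 0.37. In group 1 the arrays differed by at most 0.14 log2 units on each of the 8 probes, against a median absolute difference of 0.19 over all tested probes. A pair of single arrays allows no test of these differences.

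The rest of the pathway showed 1 change. A list of 66 genes, written with earlier results of these data known, holds other enzymes of synthesis and conjugation, transport genes and regulators. Of these, 30 had a named probe and 28 were tested, each by its brightest probe. NR1D2 was called lower in group 1 and 0 genes were called higher, against 3.92% and 5.75% of all tested genes. At an unadjusted p under 0.05 the list had 10 genes. The median difference was 0.07, beside 0.14 over all genes. In 20 of the 28 the groups did not overlap, 12 higher and 8 lower in group 1, as in 68.1% of all tested genes.

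Among 7 tested enzymes of synthesis 0 were called by limma and 1 had an unadjusted p under 0.05, with differences from -1.22 to 0.90. AMACR, a racemase that acts on the bile acid side chain, had log2 levels of 1.98 and 1.94 in group 1 and 3.62 and 2.74 in group 2, a difference of -1.22 ± 0.35 (adjusted p = 0.0854). CYP8B1, the sterol 12-alpha-hydroxylase of the cholic acid branch, had 4.75 and 4.73 in group 1 and 5.13 and 6.20 in group 2, a difference of -0.92 ± 0.40 (0.181). Both enzymes lay lower in group 1 without overlap, but neither passed the test. Without group 2 replicate 1, AMACR differed by -0.79 and CYP8B1 by -1.46. AMACR differed by -1.66 without group 2 replicate 2. The 6 conjugation genes, BAAT among them, and CYP27A1 had no named probe and were not analysed here.

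The transport list also holds the fatty acid-binding proteins FABP1 and FABP6, both named after their values were seen. Of its genes 6 were tested and 0 called by limma, with 3, FABP6 among them, at an unadjusted p under 0.05. SLC51A, a chain of the exporter that moves bile acids out across the basolateral membrane, had log2 levels of 2.11 and 2.66 in group 1 and 3.66 and 3.33 in group 2. Its difference was -1.12 ± 0.29 (adjusted p = 0.0719), and its other probe gave -1.54 (0.0751). SLCO1C1, an organic anion and thyroid hormone carrier, was well above background in group 1 alone and at least 2.19-fold higher there (adjusted p = 0.0600). It was called with the replicate block (adjusted p = 0.0448) and without group 2 replicate 1 (0.0480). SLC51A differed by -0.95 without that array. It was called in 3 of 15 fits, all with 4 arrays. These were normexp with the 75th percentile (-1.14, adjusted p = 0.0376), normexp with quantile normalization (-1.18, 0.0437) and a trended prior (-1.12, 0.0450). The canalicular pump ABCB11 and the uptake carrier SLC10A1 were not analysed here.

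Among 15 tested regulators NR1D2 was the 1 called. NR1D2 encodes REV-ERB beta, a repressing nuclear receptor of the circadian clock. Its brightest probe had log2 levels of -0.32 and -0.13 in group 1 and 1.29 and 1.72 in group 2, a difference of -1.73 ± 0.25 (adjusted p = 0.0310). Both group 2 arrays stood above both group 1 arrays. It differed by -1.94 (0.0193) without group 2 replicate 1. Its second, dimmer probe did not show this, with -2.79 and -2.92 against -2.79 and -2.89 and a difference of -0.01 (adjusted p = 0.970). The mean over both probes, -0.87, did not pass (0.0609).

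The receptor NR5A2 (LRH-1), which drives CYP7A1 in mammals, had log2 levels of 3.86 and 3.56 in group 1 and 3.72 and 3.86 in group 2, a difference of -0.08 ± 0.22 (adjusted p = 0.817). Its dimmer probes gave -0.79 (0.0934) and -0.89 (0.0619). HNF4A, another activator of CYP7A1 in mammals, differed by -0.34 ± 0.40 (0.568), and its groups overlapped. PPARGC1A, a coactivator induced by fasting in mammals, was well above background on 1 of the 2 group 1 arrays and differed by -1.15 ± 0.55 (0.210), with log2 levels of -5.25 and -3.68 on the group 2 arrays. Without group 2 replicate 1, PPARGC1A differed by -1.93. HNF4A then differed by 0.17 (0.598), with the sign turned. FGF19, the gut hormone that lowers CYP7A1 in mammals, had 3 probes, and 1 of them was well above background on 1 array, group 1 replicate 2. RXRA, FGFR4 and KLB, which take part in the same signalling, were not analysed here.

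The count of called pathway genes depended on single arrays and on processing, as did the count over all tested probes. It was 7 without group 2 replicate 1, 5 without group 2 replicate 2 and 0 without either group 1 array, with 3 and 4 genes at an unadjusted p under 0.05 (limma). NR1D2 was called in 12 of 15 fits on the brightest probe, the reported one included, and CEBPB, a liver transcription factor, in 6. CEBPB, chosen here after its values were seen, differed by -1.03 ± 0.23 in the reported fit and did not pass (adjusted p = 0.0553). RXRG, a retinoid X receptor, and PROX1, a homeobox factor, lay the other way, by 1.00 ± 0.22 (0.0554) and 0.81 ± 0.25 (0.101). Both were also named after their values were seen, and each was called in 2 of the 15 fits. The dimmer PROX1 probes gave -0.61 (adjusted p = 0.248) and 0.93 (0.0653), in opposite directions. Of the 15 regulators, 8 were higher and 3 lower in group 1 without overlap, where 68.1% of all tested genes had no overlap. Without group 2 replicate 1 the median of the 28 genes was 0.17, with 3 called higher and 4 lower, against 607 and 429 of 4871 genes.

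**Figure D3:**
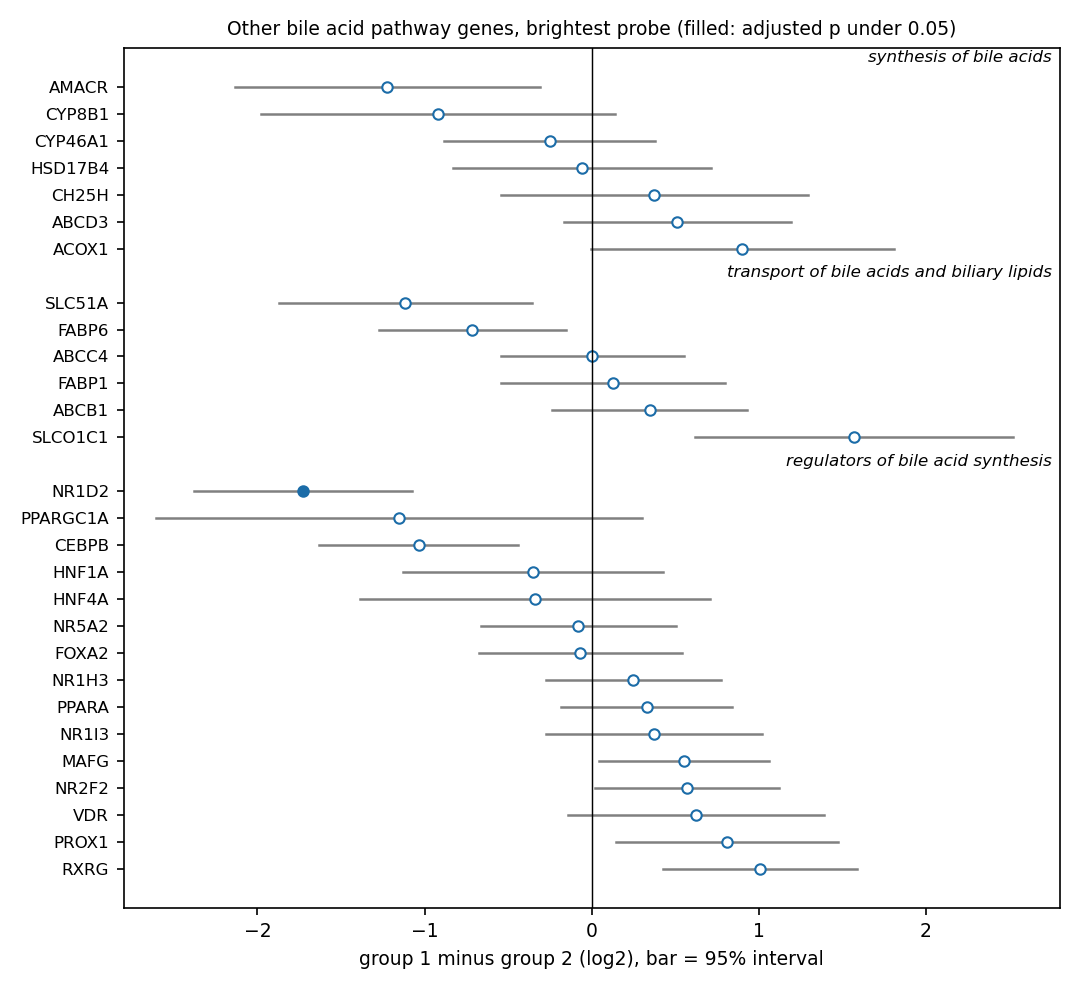
Difference of group 1 minus group 2 (log2, horizontal axis) with its 95% interval for the 28 tested genes of the wider pathway, by role and by brightest probe. NR1D2 is the 1 filled mark, and the differences run from -1.73 to 1.57.

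Cell types other than hepatocytes also differed between the groups in their markers. Each marker was read by its brightest probe, and 5.75% of all tested genes were called higher. Of 12 tested markers of intestinal epithelium, 8 were called higher in group 1 and 0 lower. The summed level of the 12 was 22.1 to 23.3 times the 75th percentile in group 1 and 9.90 to 12.5 in group 2. MTTP, named after its values were seen, had the highest level of the 12 on every array and made up most of the group 2 sums. Its groups overlapped, with a difference of 0.13 (adjusted p = 0.706). The group 2 sums thus come mostly from a marker that was not called. The defining markers RBP2, FABP2 and CDX2 were not well above background in group 2 and at least 199.5-, 95.7- and 31.6-fold higher in group 1, and VIL1 was 2.39-fold higher. Of 7 erythroid markers 3 were called higher in group 1, with summed levels of 302 to 366 against 40.1 to 139. Of 9 endothelial and stellate cell markers 5 were called higher (27.8 to 31.2 against 7.90 to 9.77). These 5 were the matrix genes COL1A2, COL3A1, COL5A1, DCN and LUM, named after their values were seen. On their brightest probes the endothelial markers CDH5 (adjusted p = 0.316), KDR (0.458) and ENG (0.133) did not pass. Of the 4 KDR probes, however, 2 dimmer ones were called higher, and the differences of the 4 ran from 0.24 to 2.46. Without group 2 replicate 1, CDH5, KDR and ENG differed by 0.93, 0.07 and 1.54 on their brightest probes. Of 9 lymphocyte and macrophage markers 2, CD74 and PTPRC, were called higher (194 to 215 against 74.9 to 95.8). Without group 2 replicate 1 the median difference was 2.47 for the intestinal and 1.56 for the erythroid markers. It was 1.54 for the endothelial and stellate and 0.91 for the lymphocyte and macrophage markers, against 0.11 over all genes. The part of these cells in the differences of CYP7A1, AKR1D1 and NR0B2 was not tested.

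For hepatocytes, the cells that make bile acids, 0 markers were called by limma on their brightest probes, with 1 at an unadjusted p under 0.05. All of the 11 tested were well above background on every array. Their differences ran from -1.41 to 0.29, and in 10 of them the groups overlapped. Their summed level was 1584 to 2160 in group 1 and 1661 to 2013 in group 2, and the median difference was 0.06. Some dimmer probes read otherwise. Of all 28 probes of these markers 5 were called lower in group 1 and 0 higher, where 3.82% of all tested probes were called lower. These were 4 of the 7 of TF, whose lowest difference was -2.36, and 1 of the 2 of FGG (-1.20). Without group 2 replicate 1 again 0 brightest probes were called. Of 6 bile duct markers 1 was called higher, CLDN3 (1.46), and 1 lower, SPP1 (-1.29). The groups did not overlap in 4 that were higher and 2 that were lower in group 1, where 68.1% of all tested genes had no overlap. The median difference was 0.83, and KRT7 had the largest, 2.753 ± 0.565 (adjusted p = 0.0503). KRT7 was thus not called in the reported fit, and it differed by 3.55 without group 2 replicate 1. These 3 genes were named after their values were seen. The list had summed levels of 16.8 to 18.0 and 16.8 to 20.0. The lists were written with earlier results of these data known.

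**Figure D4:**
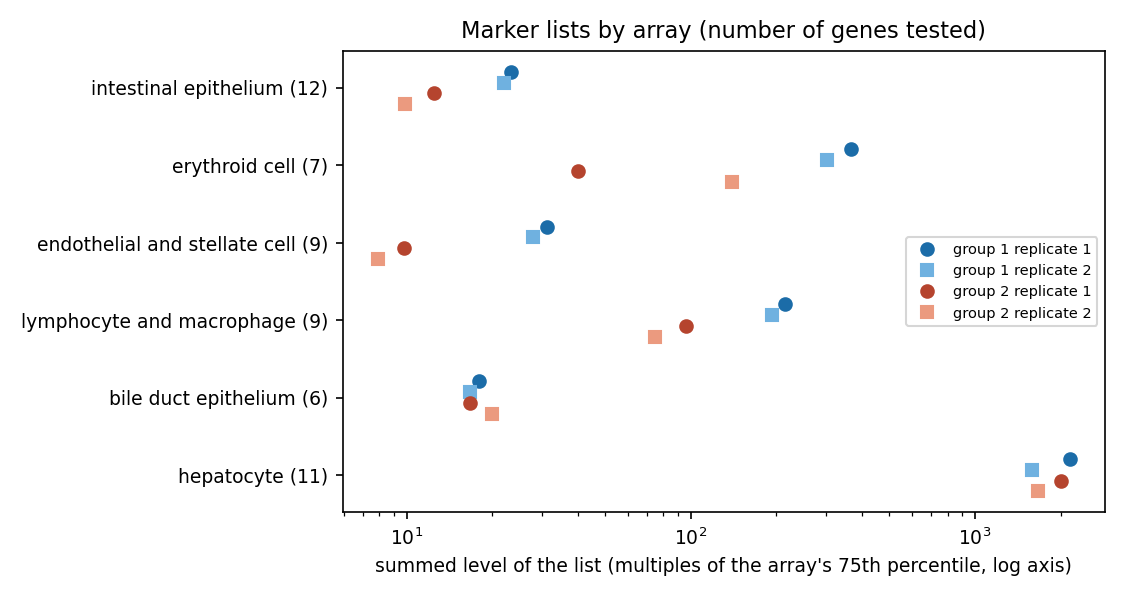
Summed level of each marker list on each array (horizontal log axis, multiples of the array's 75th percentile). Hepatocyte and bile duct lists overlap between the groups, and the intestinal, erythroid, endothelial and stellate, and lymphocyte and macrophage lists stand higher on the group 1 arrays.

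Genes with the profile most like each member were taken by the smallest root-mean-square difference of mean-centred log2 levels over the 4 arrays, among 4763 genes. For CYP7A1 these were GCHFR (0.15 log2 units apart), a regulator of GTP cyclohydrolase, SFTPA1 (0.20), a surfactant protein, and MTIF3 (0.20), a mitochondrial translation factor. For AKR1D1 they were ALG12, PDLIM5 and RASD1, each 0.04 apart. For NR0B2 they were TLDC1 (0.03), APLF (0.04) and FANCA (0.04), and for the brightest NR1H4 probe FBXL8 (0.02), PLA2R1 (0.03) and PHAF1 (0.03). The nearest genes of CYP7A1 were farther away than those of the other members. With 4 arrays in 2 groups, such a likeness mostly restates the group difference and the order of the group 2 arrays.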

How the data were processed

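Liver RNA was hybridised to 4 Agilent one-colour (Cy3) chicken arrays. Per the file headers, Agilent Feature Extraction 11.5.1.1 made the spot intensity values, background-subtracted in the processed column, on a design drawn on galGal3. The authors also deposited a table of log2 values. Set against the scanner values it followed the scaled scanner values after centring every probe (r = 1 on every array), with column medians of 0.084, 0.016, -0.094 and -0.022. It served as an alternative.

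Outlier spots (8 to 25 per array) were set to missing and spots of a probe averaged. Of 43603 probes, 33869 passed the scanner's background test on both arrays of one group or the other, and 33868 could be tested. The share well above background was 72.3% to 80.2% per array. Unversioned RefSeq accessions named 11935 probes (27.4%) through a gene table of GRCg7b, used for names and chromosomes only. The comparison used limma 3.58.1 (R 4.3.3) on all probes at once, without a block (prior degrees of freedom 2.60), and the fit was tested on simulated data. Precision is limited by the number of arrays.

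Members and lists were chosen with earlier results of these data known. The text names all members, pathway genes that were called, the 2 largest differences per pathway list, a few stated regulators and transporters, the defining intestinal markers, and the 3 genes nearest in profile. Other markers were given as counts unless said otherwise. List counts and medians without group 2 replicate 1, and list counts over all probes, were added after seeing the data. Alternatives were other scaling, background correction, filters, priors, the authors' table, the replicate block, probe means and leaving out each array. Correction with normexp (offset 50) used median spot signals. Sequences were not used here.

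Replicate numbers were shared between groups, but the deviations of same-numbered arrays correlated at r = 0.033, so the numbers were not taken as pairs.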

Additional observations from a re-analysis of the deposited data

How the results depend on the processing

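CYP7A1, by its brightest probe or the mean over probes, was called under all 11 settings that keep all 4 arrays, with differences from -3.64 to -3.08 and adjusted p from 0.00331 to 0.0369, but the third probe was not called without the filter (-2.14, 0.0505). AKR1D1 (-1.30) was not called without the filter (adjusted p = 0.0660) or with the replicate block (0.0585), nor NR0B2 (-1.56) without the filter (0.0516), where more dim probes were tested. Among settings that keep all 4 arrays, the brightest NR1H4 probe was called in 2. These were normexp with the 75th percentile (-0.85, adjusted p = 0.0495) and a trended prior (-0.87, 0.0421). Signs turned for the second NR1H4 probe with median scaling (-0.033) and for the third without group 2 replicate 1 (0.21, and -0.57 to 0.21 with each array left out). With 1 array left out the differences ran from -3.62 to -3.23 for CYP7A1, -1.48 to -1.11 for AKR1D1, -1.70 to -1.42 for NR0B2 and -1.04 to -0.70 for NR1H4. Called probes numbered 3799, and 1241 without the filter, 2423 with the replicate block and 0 to 8960 with 1 array left out. Higher calls were 2504 against 1295 lower, 1688 against 2012 with median scaling, 1574 against 1482 after quantile normalization, and 2320 against 2284 after normexp and quantile normalization. Median scaling moved the median of all genes from 0.14 to -0.08. Called pathway genes numbered 1, and 0 without the filter (8 at an unadjusted p under 0.05, limma), 2 with median scaling and with the replicate block, 3 after normexp with the 75th percentile, with a trended prior and with probes above background on all arrays, 4 after normexp and quantile normalization, and 0 to 7 with 1 array left out. The list had 28 tested genes, and 26 with probes above background on all arrays. Called probes over the whole array moved too, to 3700 of 33868 with median scaling and 4458 after normexp with the 75th percentile. They numbered 4604 after normexp and quantile normalization, 5015 with a trended prior and 3439 of 30179 above background on all arrays. Whether the pathway count moved apart from these was not tested. The list's median was -0.25 with means over probes. The cause of these shifts was not tested.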
